A study of Homo sapiens with 16 samples.

Results

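T-47D cells, an established human breast ductal carcinoma line that carries estrogen receptor α, were compared between 8 h and 4 h of treatment with 10 nM 17β-estradiol (E2). The 4 libraries of the comparison, 2 at 4 h and 2 at 8 h, were taken by cell line and time point from the 16 libraries of a bulk RNA-seq time course. The series also holds T-47D cells at 0 h (vehicle) and 2 h of E2, and Ishikawa cells, a human endometrial adenocarcinoma line, at the same 4 time points, with 2 replicates in each group. All groups were unmodified cells kept in hormone-deprived medium before treatment. Both arms of this comparison had already received E2 and differ by label in its duration. The series holds vehicle only at 0 h, so longer E2 cannot be told apart from the passing of time itself. The labels do not say whether replicates came from separate cultures, so p-values rest on a spread between libraries that may be technical. In the tests of T-47D cells that spread was estimated over all 8 T-47D libraries.

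E2 binds its receptor in the nucleus, and the receptor acts at enhancers and promoters to raise the transcription of some genes and lower that of others. In breast cancer cells held without hormone, E2 is known to move quiescent cells from G1 into S phase. Cyclin D1 and MYC are known among the first genes in that sequence, and the E2F factors then raise the genes of DNA replication. The interval from 4 h to 8 h lies after the first response of the direct targets. In bulk RNA, more cells in a state and more RNA per cell cannot be told apart.

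The 4-h libraries held 64148903 and 51653748 counts, and the 8-h libraries 50180199 and 50472464. The 2 libraries of 4 h differed from each other by a median absolute log2 difference of 0.0766 over genes, those of 8 h by 0.107, and libraries of different times by 0.101 to 0.124. The 4-h replicate 1 and the 8-h replicate 2 were therefore closer to each other than the 8-h replicates were. Levels of single genes are given as CPM, the count of a gene scaled to a common total, on library sizes adjusted by TMM (a factor that evens out differences in composition). Luminal breast markers were high in all 4 libraries, with a summed level of 18662 to 19272 CPM over 15 genes. Markers of other cell types were low, with sums of at most 19.018 CPM for 5 basal, 91.504 for 6 mesenchymal, 4.7785 for 2 immune, 0.46021 for 1 endothelial and 1.1175 for 2 adipocyte markers that passed the filter. PTPRC, the pan-leukocyte antigen, PECAM1, an endothelial adhesion molecule, and KRT5, a basal keratin, did not pass the filter. Between 4 h and 8 h no marker of these other cell types was called. Of the 15 luminal markers, 2 were called higher and 2 lower, beside 2.09% and 1.33% of all genes tested.

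Between 4 h and 8 h, 326 genes rose and 207 fell of 15594 tested (edgeR quasi-likelihood F-test, Benjamini-Hochberg adjusted p under 0.05). This is 3.42% of the genes tested, with 2.09% called higher and 1.33% called lower. The changes were small. The median log2 fold change was 0.265 among called genes that rose, a fold of 1.2, and -0.272 among those that fell, a fold of 0.828. A change of at least 0.5 on the log2 scale was reached by 58 called genes, and of at least 1 by 11. Both 8-h libraries lay beyond both 4-h libraries for every called gene, as they did for 45.3% of all genes tested. The median over all genes was 0.000585. The number of calls rested on the 4-h libraries: it was 190 without replicate 1 and 170 without replicate 2 of 4 h.

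**Figure D1:**
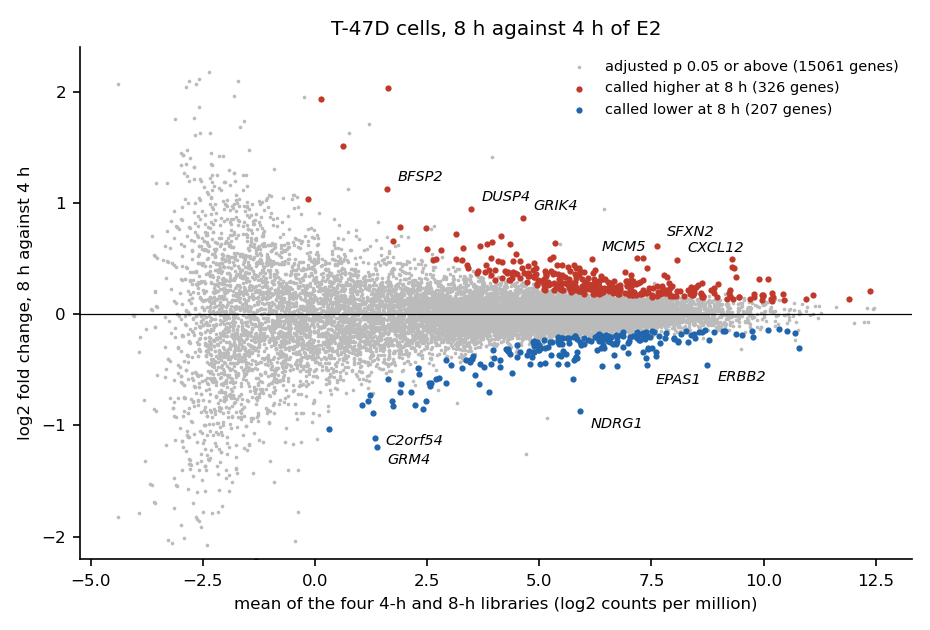
Each point is a gene, with its mean level over the 4-h and 8-h T-47D libraries on the x axis (log2 CPM) and its log2 fold change of 8 h against 4 h on the y axis. The 326 genes called higher are red and the 207 called lower are blue, most of them within 0.5 of zero on the log2 scale, and 13 genes lie outside the drawn range.

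The genes of DNA replication made up the group with the most called members of the 52 gene lists. Of 56 genes for origin licensing and the replication fork, all of which were tested, 26 rose, none fell and 30 were not called, against 2.09% of all genes called higher. The median log2 fold change of the list was 0.24, and the called members rose by 0.17 to 0.49. The list's summed level was 3783.3 and 3763.3 CPM in the 4-h libraries and 4477.1 and 4423 CPM in the 8-h libraries, so the replicates lay much closer to each other than to the other time. At an unadjusted p under 0.05, 44 members were higher and none lower, and DESeq2 called 28 higher and none lower.

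The MCM helicase, which is loaded on origins in G1 and unwinds DNA in S phase, rose in all of its subunits from MCM2 to MCM7. MCM5, on chromosome 22 (35796127 to 35821424 on hg19, plus strand), had the largest change of the list, from 60.9 and 58.5 CPM to 86.8 and 81.1 CPM (log2 fold change 0.49 ± 0.06 SE, edgeR adjusted p = 9.37e-05). MCM2 read 145 CPM in both 4-h libraries and 201 and 186 CPM in the 8-h libraries (log2 fold change 0.42 ± 0.05 SE, edgeR adjusted p = 0.000132). MCM6 went from 105 and 103 CPM to 138 and 132 CPM, a log2 fold change of 0.38. In each of these subunits, as in every called gene that rose, the lower 8-h library stood above the higher 4-h library. MCM3 went from 192 and 196 CPM to 251 and 243 CPM, and MCM7 from 117 and 114 CPM to 153 and 143 CPM. MCM4, named to complete the family after its values were seen, had the smallest change of the complex, from 331 and 326 CPM to 387 and 390 CPM (log2 fold change 0.24).

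Loading factors, helicase partners and fork proteins rose beside the helicase. MCM10, which is needed to activate the loaded helicase, went from 48.4 and 47.9 CPM to 63.2 and 64.7 CPM (log2 fold change 0.41 ± 0.05 SE, edgeR adjusted p = 0.000361). CDC45, the partner that joins MCM and the GINS complex in the active helicase, went from 17.9 and 19.3 CPM to 24.3 and 24 CPM (log2 fold change 0.38 ± 0.08 SE, edgeR adjusted p = 0.014). CDC6, a loader of the helicase, rose by 0.30, and the sliding clamp PCNA by 0.29. ASF1B, a histone chaperone of the fork, rose by 0.32, and POLD2, a subunit of DNA polymerase δ, by 0.29. CDT1, the other helicase loader, was not called between 4 h and 8 h (log2 fold change 0.21, edgeR adjusted p = 0.064). Over the list, 54 of 56 members had a positive log2 fold change.

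The replication genes were not called in the first 2 h. None of the 56 passed the edgeR or the DESeq2 test between 0 h and 2 h, where 4.9% of all genes were called higher and 4.4% lower, and 5 had an unadjusted p under 0.05 (3 higher and 2 lower). Their median log2 fold change was 0.0078. Between 2 h and 4 h, 7 rose and none fell, against 1.94% higher and 1.46% lower of all genes. In that step 28 members were higher and none lower at an unadjusted p under 0.05. The list's median log2 fold change was 0.13 from 2 h to 4 h, beside 0.24 from 4 h to 8 h. This step shares the 4-h libraries with the step from 4 h to 8 h, so the counts of these steps are not independent of each other. The steps from 0 h to 2 h and from 4 h to 8 h share no library, and their difference was tested in the same fit. The later step spans 4 h and the first 2 h, so here and below their difference is not one of rate per hour. The later step was the more positive for 19 replication genes and the more negative for none, where 3.69% and 3.55% of all genes were called in those directions. For MCM5, given here because its later step was the largest of the list, the difference was 0.54 on the log2 scale. The replication count was 14 without replicate 1 and 12 without replicate 2 of 4 h.

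**Figure D2:**
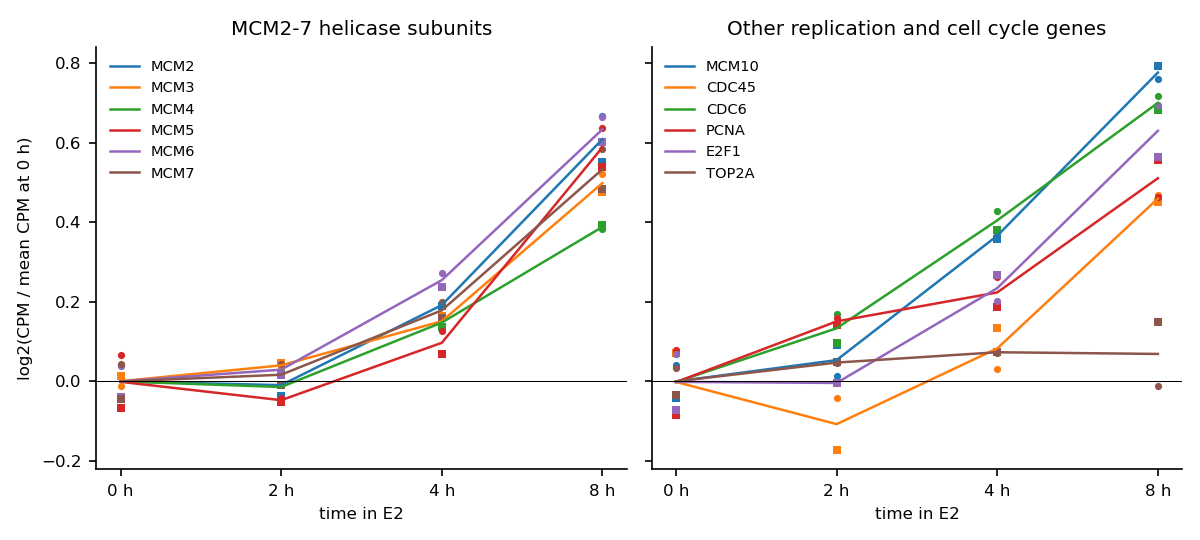
Log2 ratio of each T-47D library's CPM to the mean at 0 h, against time in E2 with the 4 time points drawn at equal spacing. Circles are replicate 1, squares replicate 2 and lines the means. The MCM genes lie near zero at 2 h and between 0.38 and 0.67 at 8 h, and TOP2A is the lowest of its panel at 8 h.

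Promoter sequences were set beside these genes because they rose together and E2F sites are a known feature of replication promoters. The windows of 250 bases before to 50 after the transcription start were taken from RefSeq (GRCh38.p14) for 22 of the 26 called replication genes. MCM4, MCM5, GINS4 and RECQL4 had no entry. The E2F letters searched were TTTCGCGC, TTTGGCGC and TTTCCCGC, on both strands, where a match on one strand can overlap a match on the other. At least 1 of these was found in 10 of the 22 promoters (45.5%), in 10 of 26 promoters of replication genes that were not called (38.5%), and in 522 of 11895 promoters of all genes tested (4.39%). Outside the replication list, it was found in 18 of 236 promoters of called genes that rose (7.63%) and in 3 of 153 of those that fell (1.96%). The share over every promoter in the table was 2.79%. These shares were not tested against each other. The full estrogen response element GGTCANNNTGACC was in none of the 258 promoters of genes that rose with an entry. It was in 1 of 11895 promoters of all genes tested and in 18 of all 27305. The element is too rare in these windows for its absence to tell called genes from others. A match is a description of letters only.

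A few of the windows are shown for the 200 bases before the start, on the gene's own strand, since they hold different arrangements of the E2F letters, which are in capitals. MCM6 (chr2:135876444-135876643, GRCh38.p14, minus strand) has 4 matches, in pairs that overlap on opposite strands. MCM7 (chr7:100101398-100101597, minus strand) has 2, and E2F1 (chr20:33686386-33686585, minus strand) has 1 close to the start.
MCM6: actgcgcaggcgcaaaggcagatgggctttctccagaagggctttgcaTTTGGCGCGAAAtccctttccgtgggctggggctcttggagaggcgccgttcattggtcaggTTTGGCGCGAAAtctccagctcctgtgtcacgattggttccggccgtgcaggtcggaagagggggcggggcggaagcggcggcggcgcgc
MCM7: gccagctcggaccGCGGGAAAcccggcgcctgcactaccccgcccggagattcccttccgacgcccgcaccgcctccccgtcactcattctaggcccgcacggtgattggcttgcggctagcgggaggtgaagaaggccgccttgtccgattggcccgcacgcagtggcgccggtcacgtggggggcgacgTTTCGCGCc
E2F1: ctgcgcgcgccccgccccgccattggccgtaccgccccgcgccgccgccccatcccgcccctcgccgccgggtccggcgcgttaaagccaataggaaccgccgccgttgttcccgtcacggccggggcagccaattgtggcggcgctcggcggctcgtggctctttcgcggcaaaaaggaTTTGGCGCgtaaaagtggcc

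Genes that drive entry into S phase changed in part. Of 29 G1 cyclins, E2F factors and related genes tested, 7 rose and 1 fell, beside 2.09% of all genes called higher and 1.33% lower. E2F1, the factor that switches on replication genes, went from 63.7 and 66.6 CPM to 89.7 and 81.9 CPM (log2 fold change 0.40 ± 0.06 SE, edgeR adjusted p = 0.000862). CDC25A, the phosphatase that activates CDK2, went from 22.7 and 21.3 CPM to 28.8 and 28 CPM (log2 fold change 0.37). UHRF1, which carries DNA methylation through replication, rose by 0.32, and cyclin E2 (CCNE2) by 0.26. Cyclin D1 (CCND1) had its first rise by 2 h and a second after 4 h, with 165 and 180 CPM before E2, 232 and 249 after 2 h, 199 and 196 after 4 h, then 230 and 233 after 8 h. Its log2 fold change was 0.23 from 4 h to 8 h (edgeR adjusted p = 0.0118) and -0.29 from 2 h to 4 h (edgeR adjusted p = 0.0018). TFDP2, a dimer partner of E2F factors, fell by 0.18. Cyclin E1 (CCNE1) was not called, with a log2 fold change of 0.24. The count of 7 was 3 without replicate 1 and 2 without replicate 2 of 4 h.

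Genes of nucleotide supply rose in part. Of 22 genes of purine and pyrimidine synthesis, 9 rose and none fell, beside 2.09% of all genes called higher and 1.33% lower. PFAS, an enzyme of purine synthesis, went from 31 and 31.2 CPM to 39.9 CPM in both libraries (log2 fold change 0.36 ± 0.06 SE, edgeR adjusted p = 0.00255). CTPS1, which makes CTP, went from 30.4 and 31.8 CPM to 39.8 and 39 CPM (log2 fold change 0.34). MTHFD1, a folate enzyme that supplies carbon units for purines, rose by 0.33, and CAD, which starts pyrimidine synthesis, by 0.24. At the step to deoxynucleotides fewer members were called, 2 of 11. DUT, which clears dUTP, rose by 0.26 and NME1, a nucleoside diphosphate kinase, by 0.24. RRM2, the ribonucleotide reductase subunit that limits deoxynucleotide supply, stood at 192 and 184 CPM and then 198 and 204 CPM and was not called (log2 fold change 0.10, edgeR adjusted p = 0.355). Thymidine kinase (TK1, 0.12) and thymidylate synthase (TYMS, 0.13) were not called either. Without either 4-h library 4 of the synthesis genes were called.

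Homologous recombination and Fanconi genes, which repair broken and stalled forks, had 5 of 21 members called, all of them higher, beside 2.09% of all genes. All 21 had a positive log2 fold change. EXO1, an exonuclease that resects DNA ends, went from 32.9 and 33.3 CPM to 41.5 and 45.2 CPM (log2 fold change 0.39 ± 0.07 SE, edgeR adjusted p = 0.00272). XRCC3, a recombination factor, rose by 0.34 and BRCA1 by 0.23. The count was 1 without replicate 1 of 4 h and 2 without replicate 2 of 4 h or replicate 2 of 8 h.

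Genes of later phases of the cell cycle were mostly not called. Of 32 genes of G2/M and mitosis, 1 was called, CDC20, an activator of the anaphase-promoting complex (log2 fold change 0.18, edgeR adjusted p = 0.0499). This is 3.12% of the list, beside 2.09% of all genes called higher, so the count does not set the list apart from other genes. The list's median log2 fold change was 0.0586, 28 members had a positive value, and 8 were higher and none lower at an unadjusted p under 0.05. TOP2A, which untangles DNA before mitosis, held 607 and 609 CPM in the 4-h libraries and 574 and 641 CPM in the 8-h libraries, so the times overlapped. MKI67, the proliferation antigen, had a log2 fold change of 0.06 and cyclin B1 (CCNB1) of 0.05, and neither was called. None of 12 replication-dependent histone genes was called by edgeR or DESeq2 or had an unadjusted p under 0.05, in libraries made from poly(A) RNA, which holds little of these transcripts.

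Of 59 cytosolic ribosomal protein genes, 15 rose between 4 h and 8 h and none fell, beside 2.09% of all genes called higher, and all 59 had a positive log2 fold change, between 0.02 and 0.28. At an unadjusted p under 0.05, 46 were higher, and DESeq2 called 24. None was called by either tool from 0 h to 2 h or from 2 h to 4 h, where 4 and 0 had an unadjusted p under 0.05. RPL35, of the large subunit, went from 323 and 313 CPM to 366 and 369 CPM (log2 fold change 0.21, edgeR adjusted p = 0.005). Their summed level was 31580 and 31357 CPM in the 4-h libraries and 34536 and 33791 CPM in the 8-h libraries. The later step was the more positive for 10 of these genes and the more negative for none. This count moved with single libraries: it was at most 3 without either replicate of 4 h, 2 without replicate 1 of 8 h, and 26 with an offset for GC content. Ribosomal protein genes have many pseudogene copies, and how reads with several alignments were counted is not given in the sources used here.

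Of 49 genes of rRNA synthesis and ribosome biogenesis, 7 rose between 4 h and 8 h, after 25 from 0 h to 2 h and 16 from 2 h to 4 h. The shares of all genes called higher in these steps were 2.09%, 4.9% and 1.94%. The later step was the smaller for 14 of them and the larger for 1. FBL, the methyltransferase that marks rRNA, was the 1 gene whose later step was larger, from 68.4 and 64.2 CPM to 82.4 and 77.4 CPM (log2 fold change 0.27, edgeR adjusted p = 0.0168). NOLC1, a nucleolar scaffold, rose by 0.21 and nucleolin (NCL) by 0.16. DDX21, a nucleolar helicase named after its values were seen, was not called, with 320 and 305 CPM and then 310 and 334 CPM. Without either 4-h library, or without replicate 1 of 8 h, at most 2 of these genes were called.

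Other genes of protein production rose by small amounts in part. Of 20 cytosolic aminoacyl-tRNA synthetases, which charge tRNAs, 7 rose by 0.16 to 0.23 and none fell. The 5 called subunits of the cytosolic chaperonin, among them CCT3 with 562 and 565 CPM and then 644 and 646 CPM, were the 5 genes that rose of 39 chaperonin and proteasome genes. Mitochondrial ribosomal proteins had 6 of 73 members called higher, and the respiratory chain and ATP synthase 4 of 76, beside 2.09% of all genes. HSPD1, the mitochondrial chaperonin, went from 366 and 350 CPM to 426 and 445 CPM (log2 fold change 0.28 ± 0.04 SE, edgeR adjusted p = 0.000899). TRAP1, the mitochondrial HSP90, rose by 0.26 and cytosolic HSP90AB1 by 0.17. Of 23 nuclear transport genes 4 rose, among them the importin IPO4 by 0.31. In the synthetase, chaperonin, mitochondrial and nuclear transport lists, at most 2 genes a list were called without either 4-h library. Without replicate 1 of 8 h there were 4 synthetases, 3 chaperonin or proteasome genes and 1 gene of each mitochondrial list, and without replicate 2 of 8 h there were 2 transport genes.

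**Figure D3:**
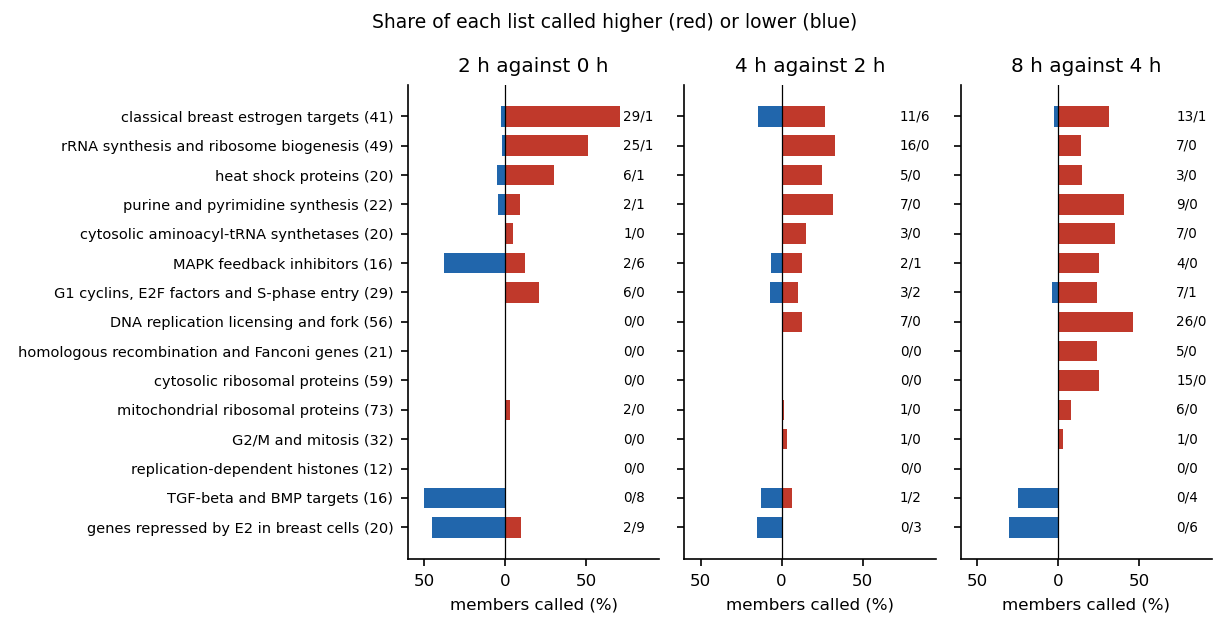
Percent of the tested members of 15 gene lists (number tested in brackets) called higher (red, to the right) or lower (blue, to the left) in each step of the T-47D time course, with the counts higher/lower beside each bar. Replication genes go from 0 to 7 to 26 calls, and estrogen targets from 29 to 11 to 13. The last step is the longest in time.

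Known estrogen targets of breast cells went on rising in part. Of 41 such genes, 13 rose between 4 h and 8 h and 1 fell, after 29 rose and 1 fell from 0 h to 2 h. The shares of all genes were 2.09% higher and 1.33% lower in the later step, and 4.9% and 4.4% in the first. The median log2 fold change of the list was 0.14 in the later step and 0.79 in the first, and the later step was the smaller for 21 members and the larger for none. CXCL12, a chemokine and direct target, read 18 and 14.5 CPM before E2, 135 and 147 after 2 h, 222 and 226 after 4 h, then 310 and 316 after 8 h. From 4 h to 8 h its log2 fold change was 0.48 ± 0.06 SE (edgeR adjusted p = 0.000233). STC2, a secreted glycoprotein, had 489 and 541 CPM after 2 h and 522 and 559 CPM after 4 h and then rose to 715 and 732 CPM (log2 fold change 0.42 ± 0.05 SE, edgeR adjusted p = 6.76e-05). ELOVL2, a fatty acid elongase, had the largest log2 fold change of the called targets, 0.72, from 6.79 and 6.45 CPM to 10.9 and 11 CPM. PDZK1, a scaffold protein, went from 11.5 and 12.6 CPM to 16 and 21.6 CPM, with the 8-h libraries apart from each other but both above the 4-h libraries. FKBP4, a co-chaperone of steroid receptors, went from 961 and 987 CPM to 1222 and 1211 CPM. CTSD, the lysosomal protease cathepsin D, rose by 0.32.

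Several of the best known targets were not called in this interval. GREB1, a cofactor of the receptor, had 457 and 487 CPM and then 515 and 522 CPM (log2 fold change 0.14, edgeR adjusted p = 0.14). The progesterone receptor (PGR) had a log2 fold change of 0.13 (edgeR adjusted p = 0.0699) and MYC of 0.18 (edgeR adjusted p = 0.342). MYB, a transcription factor, stood at 25.4 and 24.5 CPM and then 25.1 and 25.4 CPM. All 4 had risen between 0 h and 2 h, by 1.78, 0.87, 2.51 and 2.48 on the log2 scale. The estrogen receptor gene itself (ESR1) was at 182 and 193 CPM and then at 199 and 203 CPM and was not called (log2 fold change 0.10, edgeR adjusted p = 0.236).

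Outside that list, the genes with the lowest p among those that rose were SFXN2, TENM3, THSD4, GRIK4 and SULF1. SFXN2, a mitochondrial carrier, rose at each step, from 70 and 64.9 CPM before E2 to 114 and 112, 156 and 154, and 244 and 229 CPM (8 h against 4 h, log2 fold change 0.61 ± 0.05 SE, edgeR adjusted p = 2.06e-06). GRIK4, a kainate receptor subunit, went from 9.78 and 10.6 CPM after 2 h to 17.6 and 17.7 after 4 h, then 33.1 and 30.9 after 8 h (log2 fold change of the last step 0.86 ± 0.08 SE, edgeR adjusted p = 1.28e-05). THSD4, an extracellular matrix protein, had the same order, with 63.2 and 65.2 CPM after 2 h, 130 and 132 after 4 h, then 189 and 183 after 8 h. TENM3, a teneurin adhesion protein, went from 543 and 573 CPM to 737 and 746 CPM in the last step. SULF1, which trims heparan sulfate at the cell surface, went from 31.6 and 32.1 CPM to 48.3 and 51.2 CPM. GRIK4, THSD4 and TENM3 were not called from 0 h to 2 h. Their later step was larger than the first by 0.94, 0.47 and 0.33 on the log2 scale. They were picked by their later step, so these differences are no separate test of them. GJA1, the gap junction protein connexin 43, and IFITM10, an interferon-induced transmembrane family gene, rose by 0.63 each.

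**Figure D4:**
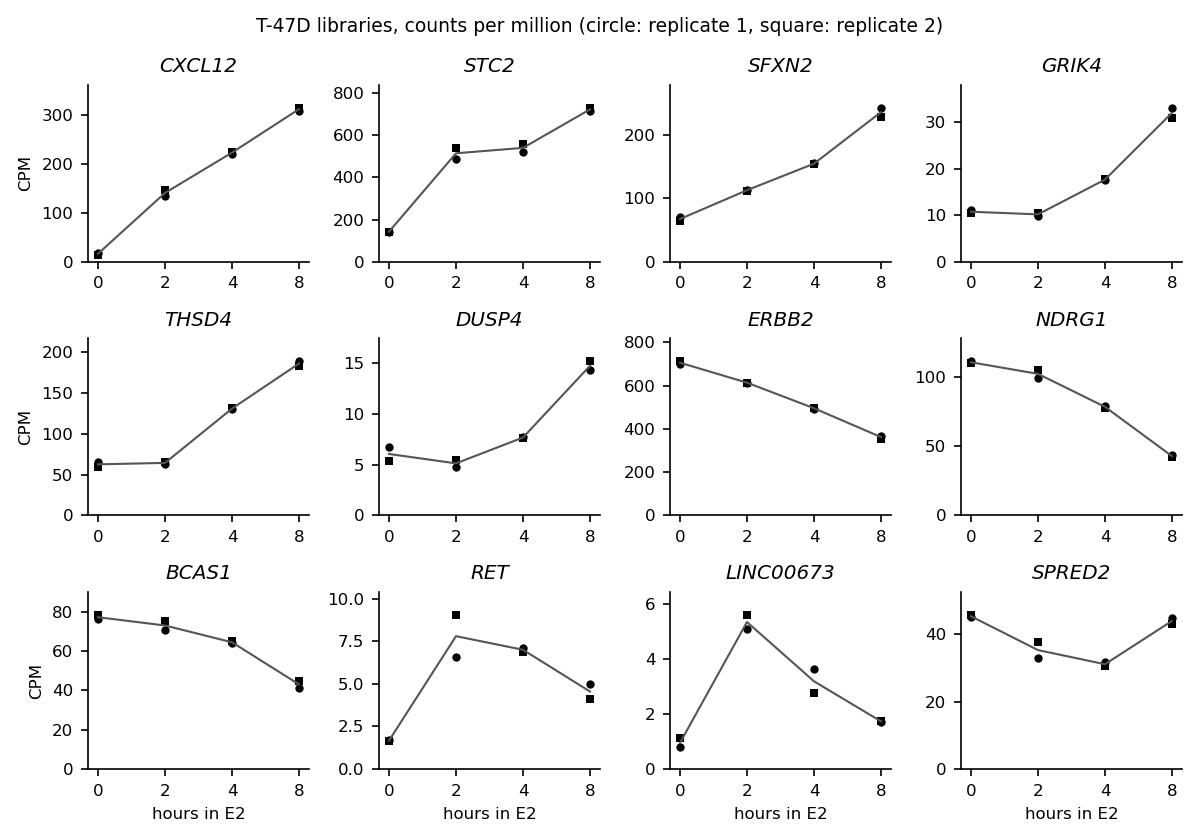
CPM of 12 genes in the 8 T-47D libraries, against hours in E2 with the 4 time points at equal spacing and the y axes starting at zero. Lines join the means of the replicates. CXCL12, STC2, SFXN2, GRIK4, THSD4 and DUSP4 rise from 4 h to 8 h, ERBB2, NDRG1 and BCAS1 fall, RET and LINC00673 fall after an earlier rise, and SPRED2 rises after an earlier fall.

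Genes that fell between 4 h and 8 h were led by NDRG1, a hypoxia-responsive growth and differentiation gene on chromosome 8 (134249418 to 134314265 on hg19, minus strand). It had the lowest p of all genes, with 111 and 110 CPM before E2, 99.3 and 105 after 2 h, 78.7 and 77.7 after 4 h, then 43.6 and 41.7 after 8 h (8 h against 4 h, log2 fold change -0.87 ± 0.05 SE, edgeR adjusted p = 3.57e-08). ERBB2, the HER2 receptor, fell at each step, from 700 and 713 CPM to 613 and 615, 494 and 497, and 369 and 355 CPM (last step, log2 fold change -0.45 ± 0.04 SE, edgeR adjusted p = 2.06e-06). EPAS1, the hypoxia factor HIF-2α, went from 196 and 198 CPM to 143 CPM in both libraries (log2 fold change -0.46). KCNMA1, a potassium channel, had 123 CPM in both 4-h libraries and 90.7 and 87 CPM in the 8-h libraries (log2 fold change -0.47 ± 0.05 SE, edgeR adjusted p = 1.79e-05). Of 12 hypoxia targets tested, NDRG1 and KDM3A, a histone demethylase (-0.27), fell and none rose, beside 1.33% of all genes called lower.

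Of 20 genes known to be repressed by E2 in breast cells, 6 fell and none rose between 4 h and 8 h, against 1.33% of all genes called lower. They were BMP7, BCAS1, ERBB2, BMF, TP53INP1 and CCNG2. BCAS1, a gene amplified in breast cancers, went from 64.1 and 65 CPM to 41.5 and 44.7 CPM (log2 fold change -0.58 ± 0.05 SE, edgeR adjusted p = 1.28e-05). BMF, a BH3-only cell death protein, went from 31.8 CPM in both libraries to 24 and 22.8 CPM (log2 fold change -0.44). CCNG2, a cyclin linked to cell cycle arrest, read 132 and 134 CPM before E2, 91.4 and 86.3 after 2 h, 103 and 98.5 after 4 h, then 80.7 and 89.9 after 8 h (last step -0.24, edgeR adjusted p = 0.0191). The count was 3 without replicate 1 of 8 h.

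Some growth factor receptors and TGF-β and BMP genes fell. Of 30 ligands and receptors of growth factors, ERBB2, FGFR4 and RET fell, none rose and 27 were not called, with a median log2 fold change of -0.059. FGFR4 went from 96.7 and 97.5 CPM to 75.5 and 65.5 CPM (log2 fold change -0.46 ± 0.06 SE, edgeR adjusted p = 0.000427). ERBB3, the partner of ERBB2, was not called in this step (-0.11, edgeR adjusted p = 0.114). Of 16 TGF-β and BMP genes, 4 fell, none rose and 12 were not called, beside 1.33% of all genes called lower. BMP7, a secreted ligand, went from 4.27 and 4.26 CPM to 2.1 and 2.72 CPM (log2 fold change -0.82), and ID2, an inhibitor of differentiation factors, from 17.5 and 17.2 CPM to 13.3 and 12.1 CPM (log2 fold change -0.45). LTBP1, which binds latent TGF-β, fell by 0.23 and the ligand TGFB3 by 0.15. Of the 4, 2 were called without replicate 2 of 4 h. WNT11, a secreted WNT ligand, had a log2 fold change of -0.82 at a low level, 2.79 and 2.47 CPM and then 1.3 and 1.68 CPM.

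Among the largest falls were further genes at a low level. GRM4, a metabotropic glutamate receptor, went from 3.52 and 3.68 CPM to 1.78 and 1.36 CPM (log2 fold change -1.19 ± 0.20 SE, edgeR adjusted p = 0.00203). C2orf54 went from 3.25 and 3.66 CPM to 1.86 and 1.32 CPM (log2 fold change -1.12). EMP1, a membrane protein of epithelia, SLCO2A1, a prostaglandin transporter, and PCDH18, a protocadherin, fell by 0.86, 0.78 and 0.72. TPM4, a tropomyosin of the actin skeleton, went from 18.5 and 18.1 CPM to 11.1 and 11.5 CPM (log2 fold change -0.70 ± 0.09 SE, edgeR adjusted p = 0.00032). NCALD, a neuronal calcium sensor, went from 6.37 and 7.65 CPM to 3.94 and 4.2 CPM. The genes given here with CPM rest on fewer reads than NDRG1, ERBB2 and EPAS1 above.

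Of 12 keratin genes tested, 1 rose, 2 fell and 9 were not called, beside 2.09% of all genes called higher and 1.33% lower. KRT8 rose from 4920 and 4863 CPM to 5687 and 5589 CPM (log2 fold change 0.20, edgeR adjusted p = 0.000326), and its partner KRT18 fell from 1741 and 1778 CPM to 1604 and 1536 CPM (log2 fold change -0.16, edgeR adjusted p = 0.00653). The 2 genes are annotated as overlapping on opposite strands, and the strand setting of the counting is not given in the sources used here. KRT7 fell by 0.31. ARNTL, the core circadian activator BMAL1, fell from 15.9 and 13.9 CPM to 10.7 and 11.1 CPM (log2 fold change -0.45).

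The feedback inhibitors of MAPK signalling, which are themselves raised by that pathway, were called in different directions over the time course. Of 16 tested, 4 rose and none fell between 4 h and 8 h, while 2 rose and 6 fell between 0 h and 2 h. Of all genes, 2.09% rose and 1.33% fell in the later step, and 4.9% and 4.4% in the first. The later step was the more positive for 6 inhibitors and the more negative for none, beside 3.69% and 3.55% of all genes. DUSP4, an ERK phosphatase, went from 7.75 and 7.57 CPM to 14.3 and 15.2 CPM (log2 fold change 0.94 ± 0.12 SE, edgeR adjusted p = 0.000198), after 6.73 and 5.36 CPM before E2. SPRY2, a Sprouty inhibitor of receptor signalling, went from 2.77 and 2.66 CPM to 4.28 and 5.05 CPM (log2 fold change 0.78). SPRED2, a relative of the Sprouty proteins, read 45 and 45.7 CPM before E2, 32.9 and 37.7 after 2 h, 31.7 and 30.5 after 4 h, then 44.8 and 43.1 after 8 h. Its log2 fold change was -0.36 in the first step and 0.50 ± 0.07 SE in the last (edgeR adjusted p = 0.0011 and 0.000361). PHLDA1, a growth-signal responsive gene, rose by 0.37. JUN, a subunit of AP-1, was the 1 of 25 immediate-early genes called, 4% of that list beside 3.42% of all genes. It went from 119 and 117 CPM to 145 and 147 CPM (log2 fold change 0.31), after a fall from 167 and 179 CPM before E2. DUSP6 (0.21) and SPRY1 (-0.14) were not called. Without either 4-h library, or without replicate 2 of 8 h, 2 of the MAPK inhibitors were called.

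The calls of this interval were set beside those of the first 2 h, when 4.9% of all genes tested had risen and 4.4% had fallen. Of the 326 genes that rose, 57 had also risen from 0 h to 2 h (17.5% of 326 and 7.46% of the 764 that rose then), 17 had fallen and 252 had not been called. Of the 207 that fell, 44 had also fallen (21.3% of 207 and 6.41% of 686), 19 had risen and 144 had not been called. The median log2 fold change from 0 h to 2 h was 0.0157 among genes that later rose and -0.0983 among those that later fell, beside -0.00943 for all genes tested.

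Genes called in opposite directions in the first and the last step came in both orders. RET, a receptor tyrosine kinase and known estrogen target, read 1.69 and 1.65 CPM before E2, 6.56 and 9.03 after 2 h, 7.11 and 6.88 after 4 h, then 4.98 and 4.12 after 8 h (last step -0.62 ± 0.15 SE, edgeR adjusted p = 0.03). LINC00673, a long noncoding RNA, had its highest values after 2 h, 5.08 and 5.58 CPM, from 0.787 and 1.12 CPM before E2, and fell from 3.61 and 2.76 CPM to 1.7 and 1.76 CPM in the last step. TGM2, a transglutaminase, read 0.135 and 0.145 CPM before E2, 3.11 and 2.66 after 4 h, then 1.78 and 1.58 after 8 h, and PDLIM3 and SYBU had the same order of directions. EPHA4, an ephrin receptor, fell from 58.8 and 52.8 CPM to 32.2 and 33.5 in the first step and rose from 34.7 and 34.2 to 43.3 and 45 in the last. RNF144B, a ubiquitin ligase, went from 59.9 and 60.1 CPM to 36 and 36.9, and then from 40.6 and 39.1 CPM to 49.3 and 52.3. SHISA2 and SPRED2 shared that order. SLC7A5, the large amino acid transporter, rose by 1.03 by 2 h and fell by 0.21 from 4 h to 8 h (906 and 953 CPM to 807 and 804 CPM).

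Some of the largest values are uncertain. GNL1, in the MHC region, had a log2 fold change of 2.03 ± 0.42 SE, but its libraries of 1 time point differed widely, with 1.87 and 6.4 CPM before E2 and 6.68 and 3.2 CPM after 8 h against 1.4 and 0.983 CPM after 4 h. XAGE2 and CT45A7 belong to families of near-identical cancer/testis genes on the X chromosome, between which reads can be split, and had log2 fold changes of 1.93 and 1.51 at 24 to 140 counts per library. BFSP2, a lens filament gene, went from 2.05 and 1.75 CPM to 4.3 and 4.02 CPM and overlaps an antisense RNA. The MHC held 3 of the 326 genes that rose, beside 88 of all 15594 tested. An annotated gene on the opposite strand overlapped 159 of the 326 genes that rose and 117 of the 207 that fell. Over all genes tested, such an overlap was present for 7897 of 15594.

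Genes that fell had longer spans than genes that rose. The median span from transcript start to end was 25.6 kb among genes that rose, 60.22 kb among those that fell and 30.55 kb among all genes tested. Both called groups had a higher level than all genes, with medians of 69.1 and 69 CPM over the time course against 21 CPM. When genes with a known position were put into 5 groups of equal size by span, 80 rose and 21 fell in the group with the shortest spans (58 to 9116 bases), and 55 rose and 71 fell in the group with the longest. The transcript GC content had medians of 53.46% and 52.37% in the called groups and 50.48% in all genes.

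The same interval in Ishikawa cells gave few calls. In a fit of all 16 libraries, 15 of 17090 genes (0.0878%) differed between the lines in the change from 4 h to 8 h by the interaction of cell line and time, 11 of them higher in T-47D cells and 4 lower. In an Ishikawa-only fit 2 genes were called by edgeR between 4 h and 8 h, and 554 had an unadjusted p under 0.05. MCM5 rose by 0.49 in T-47D cells, beside -0.04 in Ishikawa cells, a difference of 0.52 ± 0.08 SE (edgeR adjusted p = 0.013). MCM2, MCM3 and MCM7 and E2F1 differed in the same direction, by 0.47, 0.38, 0.42 and 0.52. SFXN2 and the estrogen target STC2 were also higher in T-47D cells, by 0.60 and 0.44. ERBB2 differed by -0.44 and TPM4 by -0.75. In Ishikawa cells the median absolute log2 difference was 0.0941 between 4-h replicate 2 and 8-h replicate 1. It was 0.0981 between 4-h replicate 1 and 8-h replicate 2. Both values lay below those between replicates, 0.112 at 4 h and 0.107 at 8 h. The remaining pairs of different labels differed by 0.132 and 0.109. How this closeness across time labels bears on the interaction was not tested. The number of calls moved widely: edgeR called none when only the 4-h and 8-h libraries were fitted, where 1593 genes had an unadjusted p under 0.05, and DESeq2 called 144 in all libraries.

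**Figure D5:**
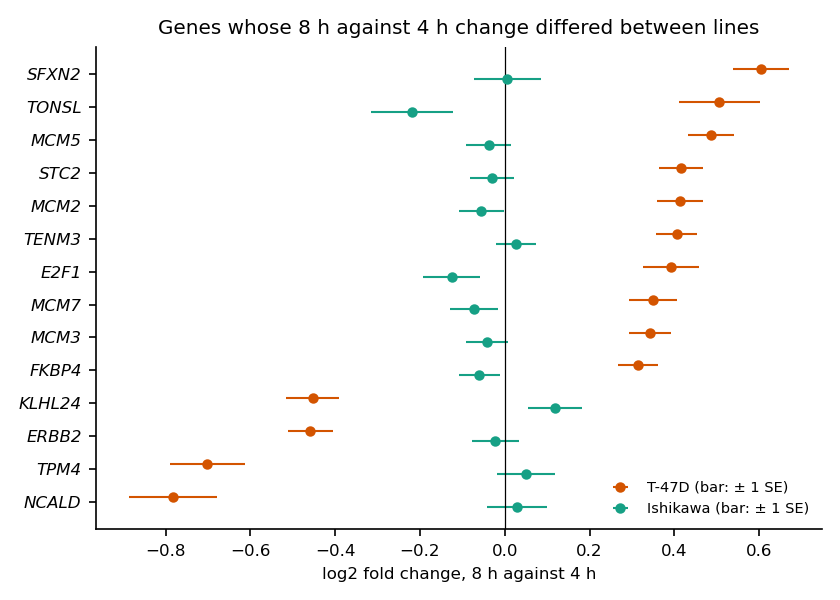
Log2 fold change of 8 h against 4 h in T-47D cells (orange) and Ishikawa cells (green) for 14 of the 15 genes with a called difference, with bars of 1 SE from the fit of all 16 libraries. The T-47D values lie between -0.78 and 0.60 and the Ishikawa values between -0.22 and 0.12. AEBP1, which had 2 counts in each 4-h T-47D library, is not drawn.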

How the data were processed

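RNA-seq libraries of T-47D and Ishikawa cells were strand-specific and prepared from poly(A) RNA, per the labels. Reads were mapped to hg19 by HISAT2, handled with SAMtools and assigned to UCSC Known Genes by featureCounts, per the study's methods. The deposited values are raw counts per gene that the authors did not normalize, for 26364 genes in 1 table per cell line. Tool versions, the strand setting, and how read pairs and multiply aligned reads were treated are not given in the sources used here. Between 71.2% and 74.6% of counts from 1 to 10 in T-47D libraries were even, so a count need not be 1 independent fragment. The labels and the methods give different lengths of hormone deprivation.

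The counts were analysed with edgeR 4.0.16 (R 4.3.3, limma 3.58.1). Genes were kept by filterByExpr by time point, libraries were scaled by TMM, and all 8 T-47D libraries were fitted with time as a factor of 4 levels and no replicate block. Contrasts used the quasi-likelihood F-test with a Benjamini-Hochberg adjusted p under 0.05 over all genes tested, and SE was taken from the log2 fold change and F. The difference between cell lines was the interaction in a fit of 16 libraries. The script was tested on simulated data. Alternatives were DESeq2 1.42.0, RLE scaling, other filters and thresholds, a replicate block, only the times compared, thinned counts, an offset for GC content, and leaving out each library. The contrast of the last against the first step and counts divided by 2 were added after seeing the data.

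The members, the 52 gene lists and the tests were chosen with earlier results of these data known. Lists are described by counts and medians, with no set test. Named genes are the 15 per direction with the largest change among called genes that average 50 counts or more and do not overlap between times, the 5 per direction with the lowest p, up to 8 called members per list and members that did not pass, the 5 per direction with the largest interaction or with opposite calls in the first and last step, and genes the study names. Not every gene so selected is reported here. Positions are from GENCODE release 44 on GRCh37, in which 22494 symbols matched directly and 1363 through an older symbol.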

Additional observations from a re-analysis of the deposited data

Results flagged for a closer look

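The change from 4 h to 8 h differed between T-47D and Ishikawa cells for 15 genes, by a test of the interaction (edgeR adjusted p under 0.05), and the following are those of them the naming rule takes. The difference, T-47D minus Ishikawa on the log2 scale, was 0.525 for MCM5 and 0.517 for E2F1. For TONSL, which acts in the repair of stalled forks, it was 0.7243, with values of 0.51 in T-47D and -0.22 in Ishikawa cells. SFXN2, a mitochondrial carrier, differed by 0.5981. On the falling side, ERBB2 differed by -0.4364, KLHL24, a ubiquitin ligase adaptor, by -0.5727, NCALD by -0.811 and TPM4 by -0.7517. AEBP1 had a fitted difference of 3.061 that rests on 2 counts in each 4-h T-47D library and 18 and 14 counts at 8 h, and its size depends on the prior count. Some 4-h and 8-h Ishikawa libraries were closer to each other than replicates were. How that bears on the differences listed here was not tested.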

How the results depend on the processing

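Counts of genes called between 4 h and 8 h in T-47D cells (533, of which 326 higher and 207 lower) were 914 (536 and 378) without a filter on low counts, 204 (135 and 69) at an adjusted p under 0.01, 943 (560 and 383) at 0.1, 58 (27 and 31) with a log2 fold change of at least 0.5, 956 (545 and 411) with an offset for GC content, and 1050 (610 and 440) with that offset and the replicate block. DESeq2 called 700, RLE scaling 542, counts thinned to the smallest library 477 and counts divided by 2 603. Without 1 library in turn the counts ranged from 170 to 686, from 107 to 399 higher and from 63 to 287 lower, with 190 without replicate 1 and 170 without replicate 2 of 4 h, and 203 higher without replicate 1 of 8 h. From 0 h to 2 h, 1450 genes were called, 901 at 0.01, 458 with the fold limit, and 816 to 1798 without 1 library. The 15 interaction calls became 144 with DESeq2, 236 without the filter, 0 at 0.01, 32 at 0.1, 8 with the fold limit, 0 with only the 4-h and 8-h libraries (1593 genes there at an unadjusted p under 0.05), and 0 to 58 without 1 library. The cause of these moves was not tested. Same-numbered libraries correlated by -0.0547 to 0.0595 after removing group means, so replicate numbers were not taken to pair them, and the replicate block gave 477 calls. None of the 157 called named genes changed direction in a setting that gave it a value. Leaving out a library could hardly reverse one, since both 8-h libraries lay beyond both 4-h libraries for every called gene. Of the 157, 75 were no longer called at an adjusted p under 0.01, and 29 with only the 4-h and 8-h libraries. BFSP2, CT45A7, RAI2, TGM2 and XAGE2 had no adjusted p by DESeq2, and TGM2 did not pass the filter of 10 counts in every library.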

Other observations

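Among lists not described above, lipid and amino acid genes held a few calls between 4 h and 8 h, beside 2.09% of all genes called higher and 1.33% lower. Of 24 genes of cholesterol synthesis and uptake, 2 rose and none fell: HMGCS1, which makes the precursor HMG-CoA (209 and 200.4 CPM to 231 and 244 CPM, log2 fold change 0.22, edgeR adjusted p = 0.0093), and SQLE, squalene epoxidase (0.17, edgeR adjusted p = 0.0332). Of 25 targets of ATF4, a factor of the amino acid response, 2 rose (STC2 and PYCR1, a proline enzyme) and 3 fell (DDIT4, an inhibitor of mTORC1, SLC7A5 and NUPR1). PYCR1 went from 120 and 123 CPM to 156 and 143 CPM, and DDIT4 from 53.5 and 48.4 CPM to 44.7 and 36.5 CPM. DESeq2 called 2 of these targets higher and 2 lower, and DDIT4 did not pass (DESeq2 adjusted p = 0.145). OAS3, an antiviral enzyme, was the 1 of 35 interferon-stimulated genes called (log2 fold change 0.26, edgeR adjusted p = 0.0412). This is 2.86% of the list, beside 2.09% of all genes called higher. The median of that list was 0.1342 beside 0.000585 for all genes. The list's summed level was 781 and 825 CPM in the 4-h libraries and 898 and 823 CPM in the 8-h libraries, so the times overlapped.

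Other lists held no call by edgeR. Of 37 spliceosome and hnRNP genes none was called, 6 were higher at an unadjusted p under 0.05, and DESeq2 called 1. Of 30 genes of cilia and microtubules none was called, 4 were higher and 1 lower at that p, and DESeq2 called 1. Of 13 Notch pathway genes none was called by either tool, with 1 higher and 2 lower at that p. The cyclin-dependent kinase inhibitor CDKN1A had 44.5 and 43 CPM and then 40.9 and 40 CPM and was not called (log2 fold change -0.11, edgeR adjusted p = 0.346).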
